A study of Mus musculus with 3 samples.

Results

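The heat shock, DnaJ and CCT chaperones were described here as 81 protein-coding genes, out of 55536 annotated genes and 22028 annotated protein-coding genes. The members were the genes whose symbols start with Hspa, Hspb, Hspd, Hspe, Hsph, Hsp90 or Dnaj, together with Tcp1, Cct2, Cct3, Cct4, Cct5, Cct7 and Cct8, provided that at least 1 transcript was annotated as protein coding. Of 95 symbols that matched, 14 had no such transcript and were left out. The families held 3 Hsp90 genes, 14 Hspa and Hsph genes, 2 genes of the Hspd and Hspe pair, 7 CCT subunits, 4 Dnaja genes, 13 Dnajb genes, 28 Dnajc genes and 10 genes with the Hspb prefix. The rule uses symbols and transcript types and no measured value.

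Total RNA depleted of ribosomal RNA was sequenced from the cytosolic fraction of primary C57BL/6J mouse macrophages grown from bone marrow. Every culture received 100 ng/ml Lipid A, the part of bacterial endotoxin that activates TLR4, for 12 h, was kept without it for 12 h, and was given 100 ng/ml Lipid A again for 30 min before harvest. The 3 libraries, each made from 1 µg of RNA, are biological replicates 1, 2 and 3 of this single condition and carry the same donor entry. No unstimulated, singly stimulated or nuclear sample was analysed here, so the values are levels under this treatment and no response to Lipid A can be read from them. Because nothing states that the cultures came from separate animals, the SDs measure only the spread between these libraries, which may be technical.

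Molecular chaperones bind unfolded or partly folded proteins and keep them from aggregating. HSP70 proteins clamp onto short exposed stretches and release them in a cycle driven by ATP. J-domain proteins, the Dnaj families, deliver substrates and start ATP hydrolysis, while nucleotide exchange factors such as the Hsph and Hspa4 proteins reopen the clamp. HSP90 acts later, on nearly folded clients such as kinases and receptors, and the TLR4 pathway uses the HSP90 of the endoplasmic reticulum (ER) to fold its receptor. CCT is a barrel of related subunits that folds actin and tubulin, and Hspd1 with its lid Hspe1 forms the corresponding chamber in the mitochondrial matrix. In most cells a stress-inducible set of these genes is driven by heat shock factor at heat shock elements, and an ER set is driven by the unfolded protein response at ER stress elements.

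Promoters of 5 members are shown because they hold the elements that define these regulated sets. They were picked after the motif matches and the expression values had been seen. Each window runs from 250 bases before to 50 bases after the annotated start, from RefSeq on GRCm38.p6, written along the gene's own strand, with the matched letters in capitals. The Hspe1 window lies at chr1:55087898-55088197 on the plus strand. Its capitals, which begin 89 bases before the start, mark overlapping matches to the 3-unit heat shock element (GAANNTTCNNGAA or TTCNNGAANNTTC, each the reverse complement of the other).
Hspe1: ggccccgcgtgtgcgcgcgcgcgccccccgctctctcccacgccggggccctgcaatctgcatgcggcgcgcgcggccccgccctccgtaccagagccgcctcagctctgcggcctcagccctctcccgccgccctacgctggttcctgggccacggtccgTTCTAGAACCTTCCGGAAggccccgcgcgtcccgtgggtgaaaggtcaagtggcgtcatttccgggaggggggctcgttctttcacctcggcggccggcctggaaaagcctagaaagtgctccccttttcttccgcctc
The windows of Hspa1a (chr17:34972107-34972406, minus strand) and Hspa1b (chr17:34959189-34959488, minus strand) hold a 2-unit element (GAANNTTC) that begins 104 bases before each start, and they are identical at 296 of 300 positions.
Hspa1a: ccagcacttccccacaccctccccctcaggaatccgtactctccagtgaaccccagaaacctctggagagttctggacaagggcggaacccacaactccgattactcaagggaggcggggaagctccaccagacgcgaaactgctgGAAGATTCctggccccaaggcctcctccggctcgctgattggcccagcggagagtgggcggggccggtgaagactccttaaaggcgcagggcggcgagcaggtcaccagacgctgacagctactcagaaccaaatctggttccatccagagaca
Hspa1b: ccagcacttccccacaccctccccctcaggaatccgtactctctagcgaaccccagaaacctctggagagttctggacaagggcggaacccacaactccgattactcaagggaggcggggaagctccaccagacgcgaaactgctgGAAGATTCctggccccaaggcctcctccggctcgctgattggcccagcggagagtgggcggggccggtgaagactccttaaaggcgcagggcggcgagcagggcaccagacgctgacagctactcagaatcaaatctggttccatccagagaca
The windows of Hspa5 (chr2:34771840-34772139, plus strand) and Hsp90b1 (chr10:86705395-86705694, minus strand) hold the ER stress element (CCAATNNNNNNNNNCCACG, counted on either strand), beginning 65 bases before the Hspa5 start and, for the first match, 212 bases before the Hsp90b1 start. The second run of capitals in Hsp90b1 is a match on the opposite strand.
Hspa5: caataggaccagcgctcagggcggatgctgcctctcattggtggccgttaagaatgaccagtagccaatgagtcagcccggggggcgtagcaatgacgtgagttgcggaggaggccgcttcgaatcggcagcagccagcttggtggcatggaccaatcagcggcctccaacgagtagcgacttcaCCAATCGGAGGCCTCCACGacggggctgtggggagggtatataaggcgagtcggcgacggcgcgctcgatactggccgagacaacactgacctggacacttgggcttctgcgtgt
Hsp90b1: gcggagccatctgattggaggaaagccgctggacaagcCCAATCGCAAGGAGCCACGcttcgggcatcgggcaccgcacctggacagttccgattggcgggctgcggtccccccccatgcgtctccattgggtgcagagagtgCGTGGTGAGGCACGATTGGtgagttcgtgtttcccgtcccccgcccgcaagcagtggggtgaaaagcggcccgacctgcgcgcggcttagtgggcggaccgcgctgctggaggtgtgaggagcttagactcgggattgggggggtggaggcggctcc

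Promoter windows were found for 66 of the 81 members. The others, Hspa8, Hsp90ab1 and Hsp90aa1 among them, were not searched. The 3-unit heat shock element occurred in 4 members with a window (Dnajb6, Hspd1, Hspe1 and Hsph1). That is 6.06% of the matched members, against 0.662% of the 27025 genes with a window. Hspd1 and Hspe1 are counted separately here, although their matching windows overlap almost fully and hold the same matches. At least 2 adjacent inverted units (GAANNTTC or TTCNNGAA, which the 3-unit forms contain) occurred in 18 members, 27.3%, against 17% of all genes. The windows of Dnajb1, a stress-inducible gene, held no match to any of these forms. The ER stress element was found in Dnajc3, Hsp90b1 and Hspa5, 4.55% of the matched members, against 0.137% of all genes. No enrichment was tested, and shares of more common letters were closer to each other. CCAAT, which the ER stress element contains, was present on either strand in 42.4% of members, against 41.1% of all genes. A TATA box (TATAAA) on the gene's strand was present in 6.06% of members, against 9.77% of all genes. These matches describe letters in a window and carry no measurement of binding. Hspd1 and Hspe1 lie head to head on chromosome 1. Their annotated bodies, Hspd1 at chr1:55077835-55088243 and Hspe1 at chr1:55088132-55091307, overlap by 112 bases, and the matching windows of both genes share 285 of 300 bases. Reads in that overlap cannot be told apart unless strand was used, and whether the counting used strand is not given in the sources used here.

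Most of the network was present at the level of RNA. A gene was called detected when it reached 1 TPM (a relative abundance corrected for transcript length and depth) in every library. By this limit 60 of 81 members were detected, against 41.2% of all protein-coding genes and 17.2% of all annotated genes. All 7 CCT subunits, all 3 Hsp90 genes, both Hspd1 and Hspe1, 3 of 4 Dnaja genes, 11 of 14 Hspa and Hsph genes, 22 of 28 Dnajc genes, 9 of 13 Dnajb genes and 3 of 10 genes with the Hspb prefix passed. The deposited TPM cover total RNA. With TPM rescaled to nuclear protein-coding genes alone, 64 members passed the same limit. The share of all protein-coding genes that passed on this scale was not computed. The 60 detected members were themselves selected by their level, so their median is no measure of the family. A mean of at least 10 TPM was reached by 30 members and a mean of at least 100 TPM by 4 members, Hspa8, Hsp90ab1, Hspa5 and Hsp90b1. The shares of all protein-coding genes at these levels were not computed, so these counts only describe the members. Together the members took 0.750% ± 0.0196 of the TPM of nuclear protein-coding genes and 0.812% ± 0.0276 of all counts assigned to annotated genes (SD, n = 3 each). In bulk RNA, fewer cells of a kind and less RNA per cell cannot be told apart. The distribution of levels was steep. Hspa8 alone supplied 27.7% ± 1.06 of the members' TPM and the 5 highest genes supplied 54.5% ± 0.991 (SD, n = 3 each).

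**Figure D1:**
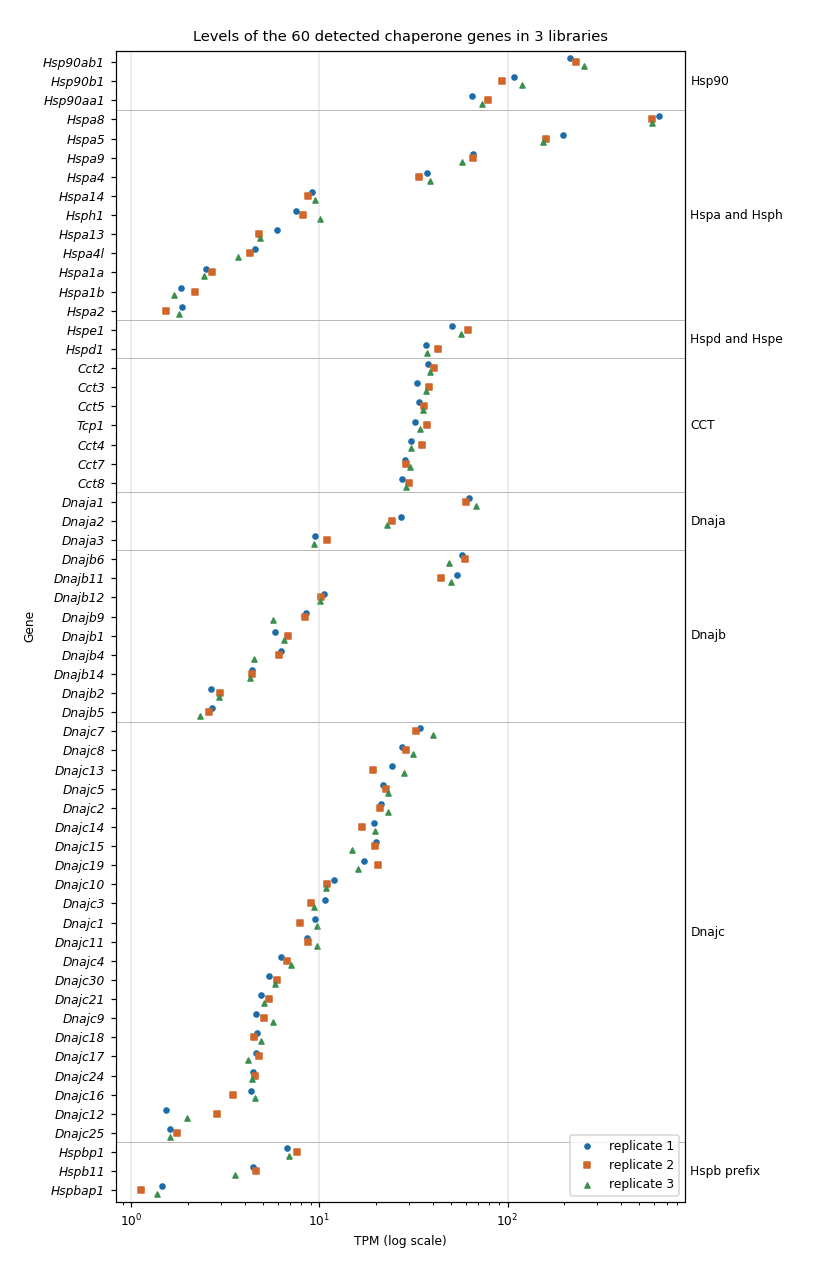
Level of each of the 60 detected chaperone genes in TPM (log axis), with 1 point per library (circle for replicate 1, square for replicate 2, triangle for replicate 3), grouped by family and ordered by mean. Hspa8 stood highest at 604 TPM, the 7 CCT subunits sat close together between 27.5 and 40.5 TPM, and the means of the Dnajc genes ran between 1.65 and 35.6 TPM.

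Replicates 1, 2 and 3 held 28759407, 54709008 and 49878183 expected counts on annotated genes, so 3 counts corresponded to 0.104, 0.0548 and 0.0601 CPM, counts scaled to library size. The labelled cell type was checked on marker lists. All 10 macrophage markers were detected (summed level between 6117 and 6621 TPM), as were 2 of 7 neutrophil markers (S100a8 and S100a9, summed list level between 6.8 and 9.93 TPM, with Ly6g and Retnlg at 0 counts). None of 6 lymphoid markers (summed level between 0.12 and 0.2 TPM) and none of 6 erythroid and stromal markers (between 0.55 and 0.96 TPM) was detected.

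The 3 HSP90 genes of the member list, cytosolic and ER, were among the more abundant members. Hsp90ab1, the constitutive cytosolic form, measured 215, 231 and 255 TPM in replicates 1, 2 and 3. Hsp90aa1, the stress-inducible cytosolic form, measured 64.3, 78.5 and 72.8 TPM in the same order. The lowest Hsp90ab1 library stood above the highest Hsp90aa1 library, and both genes had their lowest value in replicate 1. Within a library Hsp90ab1 exceeded Hsp90aa1 by 1.69 ± 0.13 on the log2(TPM + 1) scale, 3.22-fold, in 3 of 3 libraries. Hsp90b1, the ER form known as GRP94 that folds Toll-like receptors and integrins, measured 108, 93.5 and 119 TPM. It was below Hsp90ab1 in every library, the log2 difference of Hsp90ab1 over Hsp90b1 being 1.13 ± 0.16. Pairs were called when the sign was the same in 3 of 3 libraries and the mean exceeded 3 SD, and all 13 pairs examined met that rule. Genes of unlike level in libraries of 1 condition meet it easily. The share of other gene pairs that meet it was not computed, so the calls only describe these libraries. The exact two-sided sign-flip test gave p = 0.25 for each pair, which is the smallest value that 3 libraries allow, so it cannot pass a threshold.

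HSP70 transcripts were led by the constitutive form. Hspa8, the cytosolic HSC70 that also uncoats clathrin and feeds chaperone-mediated autophagy, measured 637, 586 and 588 TPM and was higher than any other member in every library. Hspa5, the ER form BiP, measured 196, 161 and 154 TPM, with replicate 1 above the others. Hspa9, the mitochondrial form mortalin, measured 65.1, 65.4 and 57 TPM, with replicate 3 lowest. Hspa8 exceeded Hspa5 by 1.83 ± 0.12 and Hspa9 by 3.25 ± 0.10 on the log2(TPM + 1) scale. The values of Hspa8, Hspa5 and Hspa9 did not overlap.

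The classical stress-inducible HSP70 genes stood far lower. Hspa1a measured 2.48, 2.67 and 2.43 TPM, and Hspa1b measured 1.84, 2.19 and 1.69 TPM. Their sum, 4.43 ± 0.383 TPM (SD, n = 3), was below Hspa8 by 6.80 ± 0.14 on the log2(TPM + 1) scale, a difference of 111-fold in favour of Hspa8. The pair are neighbours on chromosome 17 with 9951 bases between them, and their transcripts are 99.2% identical over 2201 aligned bases, so reads can be shared between them and their separate values are uncertain. The deposited posterior SD of the count was 2.26% for Hspa1a and 3.13% for Hspa1b. Hspa1b was lower than Hspa1a by a log2 difference of -0.28 ± 0.07, and without replicate 1 this difference, at -0.28, no longer exceeded 3 SD. Hspa1l, the neighbouring gene known mainly from testis, stayed below the limit at 0.38 ± 0.07 TPM (SD, n = 3).

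Nucleotide exchange factors and the remaining HSP70 relatives were intermediate. Hspa4, a relative of HSP110, measured 37.2, 33.8 and 38.8 TPM, and Hsph1, the stress-inducible HSP110, measured 7.46, 8.18 and 10.1 TPM. Hspa4 stood above Hsph1 by 1.98 ± 0.17 on the log2(TPM + 1) scale in 3 of 3 libraries. By counts, which are not divided by length, the deposited table gave Hspa4 a mean of 8410 and Hsph1 a mean of 1841 per library, and 35.2% of the Hspa4 TPM came from retained-intron models, as described with the transcript classes. Hspa14, a ribosome-associated form, averaged 9.06 ± 0.406 TPM, Hspa13, a microsomal form, 5.20 ± 0.653 TPM, and Hspa4l 4.16 ± 0.430 TPM (SD, n = 3 each). Hspa2, known for its role in male germ cells, was the lowest detected member of this family at 1.73 ± 0.181 TPM. Hspa12a and Hspa12b, distant relatives, were below 1 TPM in every library.

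The mitochondrial chamber genes moved together between libraries. Hspe1, the lid, measured 50.5, 61.8 and 56.5 TPM and Hspd1, the chamber, measured 37, 42.7 and 37.5 TPM. Both were highest in replicate 2 and lowest in replicate 1. Hspd1 was below Hspe1 in each library, by a log2 difference of -0.51 ± 0.07. Whether the shared reads of the overlapping ends contribute to their common course was not tested.

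CCT subunits had similar levels by gene TPM, which adds up all transcript models of a gene. Cct2 measured 37.7, 40.5 and 38.7 TPM, Cct3 33.1, 38.3 and 36.7 TPM, and Cct5 34, 35.8 and 35.6 TPM. Tcp1, the founding subunit, measured 32.3, 37.3 and 34.1 TPM, and Cct4 measured 30.6, 35.1 and 30.8 TPM. At the lower end Cct7 measured 28.6, 28.8 and 30.3 TPM and Cct8 measured 27.5, 29.9 and 28.9 TPM. The highest subunit exceeded the lowest by 1.37-fold, 1.41-fold and 1.34-fold in replicates 1, 2 and 3, with a coefficient of variation among the 7 genes between 10.7% and 12.3%. Cct2 was the highest of the 7 in every library. Protein-coding models held 99.7% of the Cct2 TPM. Retained-intron models held 29.4% of the Cct3 TPM. Models annotated for nonsense-mediated decay held 25.0% ± 3.40 of the Cct7 TPM and 18.7% ± 3.06 of its counts (SD, n = 3 each). The spread among subunits in protein-coding models alone was not computed. Neighbouring subunits in the order overlapped across libraries, except that every Cct4 value lay above every Cct7 value. The order itself depended on the quantification. In the gene table Cct2 exceeded Tcp1 by 0.17 ± 0.05 on the log2(TPM + 1) scale, whereas in the second deposited quantification Tcp1 was the highest subunit in every library and the difference of Cct2 over Tcp1 was -0.13. There the highest subunit exceeded the lowest by between 1.44-fold and 1.74-fold. Without replicate 3 the Cct2 over Tcp1 difference in the gene table, 0.16, no longer exceeded 3 SD. Cct6a, the subunit whose symbol the rule did not match, measured 33.3, 40.9 and 46.7 TPM, which raised the spread in replicate 3 to 1.62-fold.

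J-domain genes of class A were led by Dnaja1, a main cytosolic partner of HSC70, at 62.2, 59.8 and 68.2 TPM. Dnaja2, its close relative, measured 27, 24.4 and 22.8 TPM, and the difference of Dnaja1 over Dnaja2 was 1.33 ± 0.19 on the log2(TPM + 1) scale. Dnaja3, the mitochondrial partner of mortalin, averaged 9.92 ± 0.867 TPM, and Dnaja4 was below 1 TPM in every library. Hspa8 stood above its partner Dnaja1 by 3.23 ± 0.13 on the same scale. The groups of 3 values for Hspa8, Dnaja1, Dnaja2 and Dnaja3 did not overlap.

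Class B J-domain genes included an abundant pair. Dnajb6, which suppresses the aggregation of polyglutamine proteins, measured 57.2, 59.5 and 48.7 TPM, and Dnajb11, the ER partner of BiP, measured 54.1, 44.3 and 50.2 TPM. Their ranges overlapped. Dnajb1, the stress-inducible partner of HSP70, measured 5.79, 6.77 and 6.50 TPM, below Dnaja1 by 3.13 ± 0.14 on the log2(TPM + 1) scale. Dnajb9, an ER protein that targets misfolded substrates for degradation, measured 8.44, 8.39 and 5.65 TPM, with replicate 3 apart from the other libraries. Dnajb12, an ER membrane protein, averaged 10.3 ± 0.304 TPM, and Dnajb14, its relative, 4.35 ± 0.0723 TPM. Dnajb2 and Dnajb5 were the lowest of the 9 detected genes, at 2.84 ± 0.172 and 2.53 ± 0.176 TPM (SD, n = 3 each).

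Class C J-domain genes serve many separate sites in the cell, and 22 of 28 were detected. Dnajc7, which links HSP70 and HSP90, measured 34.2, 32.6 and 40.2 TPM, and Dnajc8, a splicing-associated protein, measured 27.5, 28.9 and 31.5 TPM. Dnajc13, an endosomal sorting protein, measured 24.4, 19.1 and 28.2 TPM, and its highest library stood above its lowest by more than any other of the 4 leading genes of this class. Dnajc5, the cysteine string protein of secretory vesicles, measured 21.7, 22.7 and 23.2 TPM. Dnajc2, a ribosome-associated chaperone, averaged 21.7 ± 1.19 TPM and Dnajc14, an ER membrane protein, averaged 18.7 ± 1.52 TPM. Among genes of mitochondria, Dnajc15, which restrains respiratory complex I, averaged 18.2 ± 2.91 TPM, and Dnajc19, part of the import motor, averaged 18 ± 2.36 TPM. Among genes of the ER, Dnajc10, a disulfide reductase, averaged 11.2 ± 0.626 TPM, Dnajc3, an inhibitor of the kinase PERK, 9.70 ± 0.854 TPM, and Dnajc1 9.02 ± 1.02 TPM (SD, n = 3 each). The lowest detected genes were Dnajc12, at 1.53, 2.84 and 1.98 TPM, and Dnajc25, at 1.60, 1.74 and 1.61 TPM. Dnajc12 showed the widest relative spread of the detected members, a coefficient of variation of 31.4% on a mean of 178 counts. Dnajc27 and Dnajc28 were measured below the limit, at 0.837 ± 0.0115 and 0.460 ± 0.0625 TPM.

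Small heat shock proteins proper did not reach 1 TPM in every library on the deposited scale. Hspb1, the small protein HSP25 that is widely induced by heat, measured 0.06, 0.28 and 0.05 TPM from 2, 19 and 3 expected counts. Hspb6 came closest to the limit at 0.87, 0.99 and 1.12 TPM, and Hspb9 averaged 0.303 ± 0.0924 TPM. With TPM rescaled to nuclear protein-coding genes Hspb6 passed the limit, so its call depends on the scale. The 3 detected genes with this prefix encode proteins of other kinds. Hspbp1, an exchange factor for HSP70, averaged 7.08 ± 0.465 TPM, Hspb11, an intraflagellar transport protein, 4.18 ± 0.543 TPM, and Hspbap1, a protein that binds Hspb1, 1.31 ± 0.165 TPM (SD, n = 3 each). In all, 9 members had 0 counts in every library: Dnajb8, Dnajc22, Dnajc5b, Dnajc5g, Dnajc6, Hspb2, Hspb3, Hspb7 and Hspb8. A count of 0 allows up to the level of 3 counts given above for each library. A list of 16 members described mainly from testis, muscle, neurons or other tissues outside the blood lineages held 0 detected genes. Over all protein-coding genes 41.2% were detected. The summed level of the list lay between 1.9 and 2.8 TPM. The list was chosen with earlier results of these data known, so its 0 detected genes is no independent result and the shares are not a like comparison. It is also not complete, as it leaves out Hspa2, known from male germ cells and detected at 1.73 TPM. Of this list Hspb6 and Hspa1l passed the limit after the rescaling.

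Regulators and partners outside the member list were also present. Of 6 genes linked to heat shock factor, 3 were detected: Hsf1, the main stress-responsive factor, at 4.93 ± 0.0889 TPM, Hsf2 at 2.91 ± 0.346 TPM and Hsbp1, a factor-binding protein, at 61.5 ± 3.09 TPM (SD, n = 3 each). Hsf4, Hsf5 and Hsf2bp were below the limit. Hsf1 exceeded Hsf2 by 0.61 ± 0.11 on the log2(TPM + 1) scale. All 18 genes on the HSP90 cochaperone list were detected. The list also holds Trap1, which is the mitochondrial HSP90 and no cochaperone, at 11.0 ± 0.686 TPM. Ahsa1, the activator of the HSP90 ATPase, averaged 70.4 ± 4.62 TPM, Fnip2, a folliculin partner, 61.8 ± 12.2 TPM, Cdc37, the kinase-specific adaptor, 47.9 ± 2.49 TPM and Ptges3, the p23 protein, 36 ± 3.38 TPM. Of 15 HSP70 cochaperones and exchange factors 14 were detected, with Bag1 at 63.3 ± 1.97 TPM, St13 at 38.7 ± 4.78 TPM, Bag6 at 36.6 ± 1.71 TPM and the ubiquitin ligase Stub1 at 22.4 ± 3.94 TPM. Bag2 was the exception at 0.350 ± 0.0529 TPM, and Hspbp1 belongs both to this list and to the members. Of 17 prefoldin, tubulin-cofactor and CCT-partner genes 16 were detected, Cct6b being the exception, and Tbca, Pfdn5 and Tbcb led with 60.9 ± 5.42, 55.2 ± 1.39 and 43.2 ± 2.64 TPM. All 6 mitochondrial proteases and unfoldases were detected, from Clpb at 3.27 ± 0.398 TPM to Htra2 at 16.6 ± 0.405 TPM (SD, n = 3 for each gene).

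Comparisons of whole lists within a library followed the same rule as the pairs. The median CCT subunit stood above the median Dnaj gene by 2.40 ± 0.01 on the log2(TPM + 1) scale, 5.28-fold, in 3 of 3 libraries, with the undetected Dnaj genes kept in. With detected genes alone the difference was 1.81. The ER list held 10 members and left out Dnajb12 and Dnajc14, named above as ER membrane proteins. These 10 were below the 10 members of the mitochondrial list by a log2 difference of -0.44 ± 0.22, which did not exceed 3 SD. Its sign rested on the summary, as list means in place of medians gave 0.10, and the cause was not tested. The difference exceeded 3 SD with detected genes alone, at -0.80, and without replicate 2, at -0.31. The median of all 81 members stood below that of the detected protein-coding genes by a log2 difference of -0.43 ± 0.08, but the 60 detected members alone stood above it, by 0.30. That reversal follows from the 21 undetected members, which were compared with a set that holds detected genes only.

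The spread of the members between libraries was set beside that of all genes tested. By a chi-square test of the rounded expected counts, given effective library sizes from edgeR's TMM scaling and Benjamini-Hochberg adjustment over 13410 genes, 51 of 67 members with a mean of at least 10 counts varied beyond counting noise at an adjusted p under 0.05, against 66.2% of all genes tested and 67.8% of the protein-coding genes. By family the test called 6 of 7 CCT subunits, 3 of 3 Hsp90 genes, 9 of 13 Hspa and Hsph genes, 2 of 2 of the Hspd and Hspe pair, 3 of 3 Dnaja genes, 7 of 10 Dnajb genes, 19 of 24 Dnajc genes and 2 of 5 genes with the Hspb prefix. Cct7 was the subunit that was not called. With only 2 libraries the test called 42, 33 and 37 members without replicate 1, 2 and 3, against 53.2%, 44.3% and 44.2% of all genes in the same settings. In the partner lists the test called 2 of 4 genes linked to heat shock factor and 14 of 18 on the HSP90 cochaperone list. It also called 8 of 15 HSP70 cochaperones, 13 of 16 prefoldin and CCT partners and 4 of 6 mitochondrial proteases. This test compares libraries, not conditions, and reads without molecular identifiers are not independent molecules. It calls a given relative spread more readily at high counts. Members and all genes were not matched for abundance, so the shares are not a like comparison.

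The biological coefficient of variation, edgeR's estimate of the spread left after counting noise, had a median of 0.123 over 66 members, against 0.134 over 12738 genes and 0.128 over protein-coding genes. Of 66 members 10 lay above the trend for genes of their abundance, against 25.8% of all genes. The member farthest above it was Dnajb9, with a coefficient of 0.160, 1.35 times the trend, followed by Dnajb4 at 1.12 times, Dnajc15 at 1.08 times, Hspe1 and Dnajc19 each at 1.05 times and Hspa4l at 1.03 times. Hspa8 lay below the trend at 0.853 times. Among the 60 detected members the coefficient of variation of TPM had a median of 7.92%, against 9.50% for the 9080 detected protein-coding genes. Unlike the trend, these medians and those of the biological coefficient take no account of abundance. The steadiest was Dnajc24, an enzyme cofactor of diphthamide synthesis, at 1.5%.

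**Figure D2:**
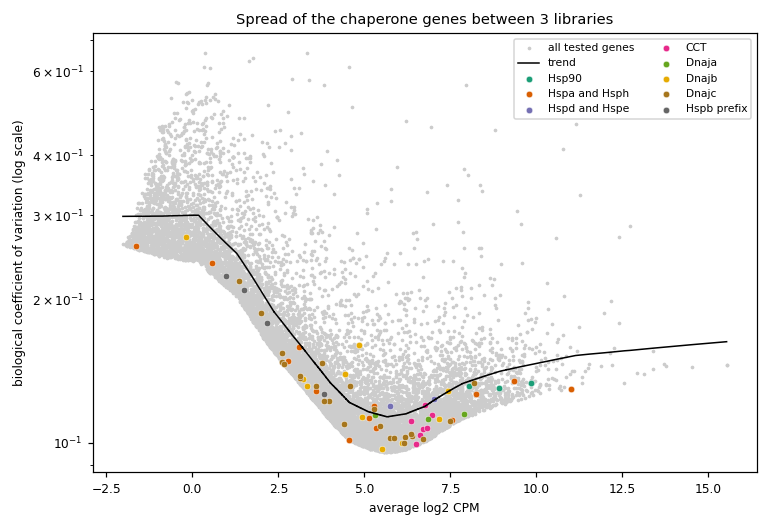
Biological coefficient of variation (log axis) against average log2 CPM for all 12738 genes tested (grey), with the 66 members coloured by family and edgeR's trend as a black line. Most members lie under the trend, with Dnajb9 the farthest above it at a coefficient of 0.160.

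Each library was set against the mean of the other libraries in CPM with TMM scaling, as a description with no test. The shares over all genes were not matched to the members for abundance, and genes of low count pass 1.5-fold more easily. In replicate 1, 0 of 67 members were past 1.5-fold higher and 0 past 1.5-fold lower, against 5.43% and 4.44% of all genes. In replicate 2 the counts were again 0 and 0, against 3.87% and 8.05%. In replicate 3 no member was past 1.5-fold higher, against 8.45% of all genes, and 1 was lower, Dnajb9 with a log2 difference of -0.62, against 5.06%. Of the 67 members 43 were lower in replicate 1, against 50.95% of all genes, and 17 were lower in replicate 2, against 43.89%. In replicate 3, 40 members were lower, against 52.09% of all genes. Some families shifted as a whole and others did not. All 7 CCT subunits were lower in replicate 1 (log2 differences between -0.26 and -0.05) and all 7 were higher in replicate 2 (between 0.07 and 0.33). Hspd1 and Hspe1 were lower in replicate 1, at -0.21 and -0.30, and higher in replicate 2, at 0.33 and 0.31. The Hsp90 genes shifted together only in replicate 3, where all 3 were higher (between 0.11 and 0.19). In replicate 1 Hsp90aa1 and Hsp90ab1 were lower, at -0.32 and -0.23, while Hsp90b1 hardly differed, at -0.01. In replicate 2 Hsp90b1 was lower, at -0.18, and Hsp90aa1 and Hsp90ab1 were higher, at 0.21 and 0.08. The other families were mixed in replicate 1, with 1 gene higher and 2 lower in Dnaja, 6 higher and 4 lower in Dnajb, 7 higher and 17 lower in Dnajc, 8 higher and 5 lower in Hspa and Hsph, and 2 higher and 3 lower among genes with the Hspb prefix. Hspa5 differed from the Hsp90 genes, at 0.27 in replicate 1 and -0.18 in replicate 3. The median member shift was -0.08, 0.08 and -0.01 in replicates 1, 2 and 3, against -0.01, 0.04 and -0.01 for all genes. Replicate 1 was also the shallowest library and had the largest share of counts on rows without an annotated gene, 0.774% against 0.207% and 0.167% in replicates 2 and 3, and the part of depth or of these rows in the shifts was not tested.

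**Figure D3:**
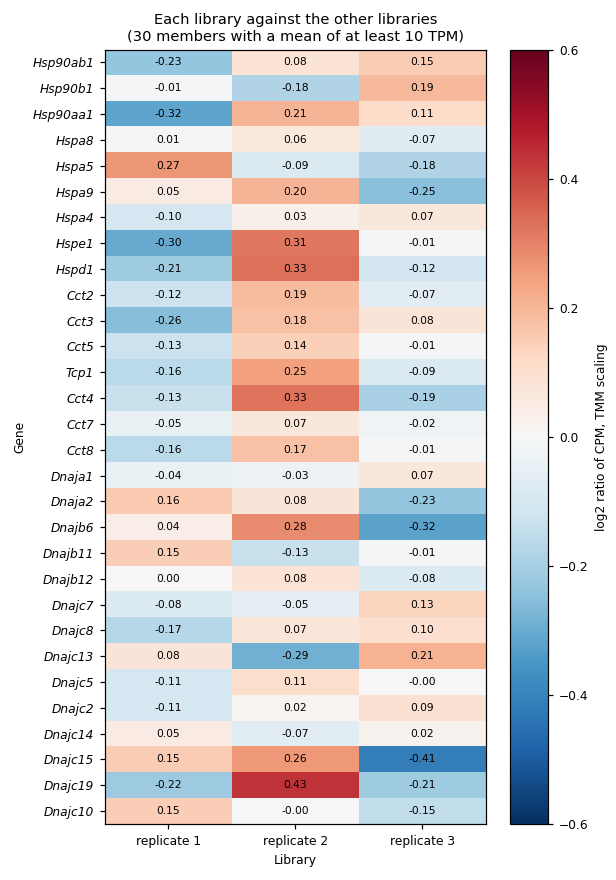
Log2 difference of each library from the mean of the other libraries, in CPM with TMM scaling, for the 30 members with a mean of at least 10 TPM (rows, by family) in the 3 libraries (columns). Blue cells mark lower and red cells higher values, and the CCT block is blue in replicate 1 and red in replicate 2.

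Transcript models that encode the annotated protein carried most of the signal. Over the 60 detected members the median share of gene TPM in protein-coding models was 98.0%, and 44 members had at least 90%. By expected counts, which do not favour short models, the median share was 99.2% and 52 members had at least 90%. The exceptions were specific genes. For Dnajc15 the protein-coding model held 7.74% ± 0.186 of the TPM but 60.7% ± 1.02 of the counts (SD, n = 3 each). A model annotated for nonsense-mediated decay, a pathway that removes transcripts with early stop codons, held 46.21% ± 2.14 of the TPM. The class of other types held nearly the same share, 46.05% ± 2.22 (SD, n = 3 each). It was the higher of these classes in replicates 1 and 2 (47.75% against 44.44%, 46.87% against 45.6%) and the lower in replicate 3 (43.53% against 48.58%). For Dnajc5 a model annotated for nonsense-mediated decay led in the second quantification. That class held 40.3% ± 0.642 of the TPM and 30.3% ± 0.426 of the counts in the gene table's source. For Hspa4 retained-intron models held 35.2% ± 3.14 of the TPM and 4.84% ± 0.593 of the counts. For Hsp90aa1 the same class held 26.6% ± 4.64 of the TPM and 1.41% ± 0.335 of the counts. For Cct3 it held 29.4% ± 2.66 of the TPM and 6.57% ± 0.442 of the counts, and 5.6% ± 3.49 of the TPM in the second quantification. For Dnajc7 models of other types held 46.4% ± 3.91 of the TPM and 19.1% ± 2.58 of the counts. The gene TPM of these members therefore includes a part that is not from protein-coding models, and that part was smaller by counts than by TPM in each of the 6 genes.

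**Figure D4:**
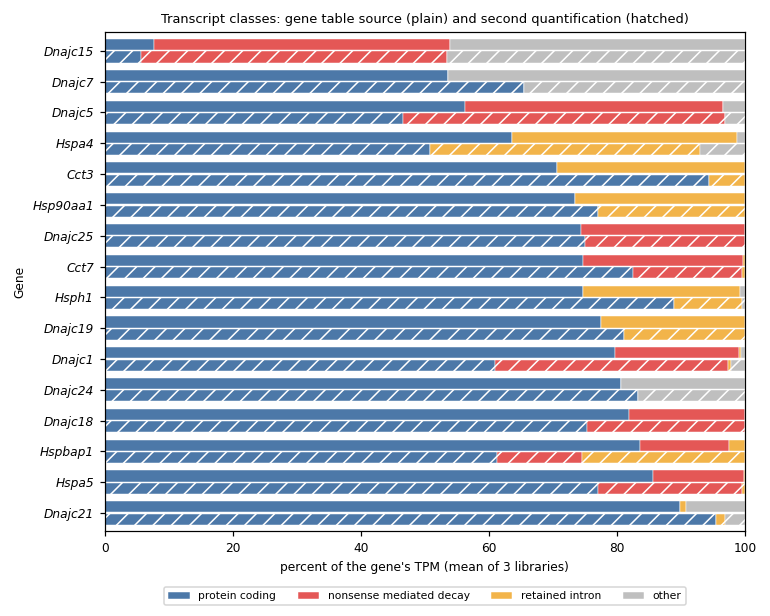
Mean share of each gene's TPM over 3 libraries in protein-coding (blue), nonsense-mediated decay (red), retained-intron (yellow) and other (grey) transcript models, for the 16 detected members with under 90% in protein-coding models. Plain bars are the source of the gene table and hatched bars the second quantification, and Dnajc15 has the smallest protein-coding share in both, 7.74% and 5.62%.

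The second deposited quantification, which assigns reads to transcripts by another method and was summed per gene here, gave lower TPM for the typical gene, with a median log2 difference of -0.94 over the 9080 detected protein-coding genes. After that median was subtracted, 0 of 60 detected members differed by more than 2-fold, against 0.363% of those genes. It gave Hspa8 263 ± 67.9 TPM and Cct3 12.1 ± 2.59 TPM (SD, n = 3 each). The largest centred differences were Cct3 at -0.57 and Dnajc25 at 0.54. Dnajc25 averaged 1.65 TPM in the gene table, and at so low a level the pseudocount of 1 raises the centred value. Hspb2, at 0 TPM in both quantifications, had a centred value of 0.94. A low gene could therefore hardly be counted as past 2-fold lower, which limits the count of 0 of 60. The same transcript model led in both quantifications for 55 of 60 detected members.

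**Figure D5:**
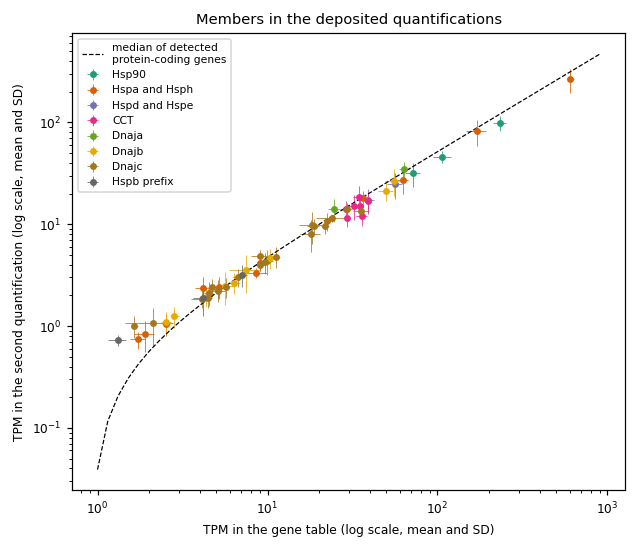
Mean TPM of the detected members in the second quantification against the gene table (log axes, bars are SD over 3 libraries), coloured by family, with the median relation of detected protein-coding genes as a dashed line. Most members lie near the line, with Cct3 below it and the lowest gene, Hspbap1 at 1.31 TPM in the gene table, above it. The line includes the pseudocount of 1, which bends it down at low levels.

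Near-identical copies took few of the reads. Of the 81 members 14 had a copy outside the list at 95% identity or more over 80% or more of a transcript, 38 copies in all, mostly pseudogenes. The copies of Dnajb6 were assigned 1.18% ± 0.177 as many counts as the gene, those of Dnaja1 1.06% ± 0.174 and those of Hspa8 0.311% (SD, n = 3), and no member had copies above 10%. How the authors' assignment split reads between a gene and its copies was not tested.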

How the data were processed

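Values were analysed as deposited, on mm10 with GENCODE annotation M21 per the deposited text of each library. Per the file headers, the authors gave each gene an expected count, a TPM and a posterior SD of the count (treated as a score), with a layout as RSEM writes, and gave each transcript the same, plus estimated counts and TPM in a second table with a layout as kallisto writes. The aligner, the tool versions and any use of strand in counting were not given in the sources used here. Expected counts were rounded before count statistics. The unit of comparison between genes was TPM, with a pseudocount of 1 on the log2 scale. Log2 differences understate changes of low genes. The centred differences between quantifications are the exception, as the pseudocount raises them for low genes. TMM scaling and dispersions came from edgeR 4.0.16 under R 4.3.3, with filterByExpr and an intercept alone. The chi-square test (scipy 1.17.1) used genes with a mean of at least 10 counts and Benjamini-Hochberg adjustment over all of them. Its script was tested on simulated data. Copies were found with blastn 2.17.0. Rows that name no annotated gene were dropped from library sizes and tests (TPM were kept as deposited), and their share of the counts was 0.774%, 0.207% and 0.167% in replicates 1, 2 and 3.

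With 1 condition, no groups were compared. The libraries differed by more than counting noise in the chi-square test, so each was counted as 1 replicate, and that test does not show whether they are separate preparations of 1 culture. Named genes were the 7 CCT subunits, up to 4 highest and 2 lowest detected members of each family, the standard inducible and constitutive forms, the 6 members of highest dispersion over trend at a mean of at least 100 counts, the genes of the 13 pairs, and the 4 highest and the undetected genes of each partner list. Genes named beyond these, among them the transcript examples, were chosen after their values were seen. The rule for the members uses no measured value, but this set of genes, the lists and the tests were chosen with earlier results of these data known. Alternatives covered the detection limit, pseudocount, scaling, count filter, DESeq2 1.42.0 size factors, list summary, second quantification and leaving out each library.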

Additional observations from a re-analysis of the deposited data

How the results depend on the processing

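Over 26 results and 135 alternative values, 127 kept their direction and their side of the rule or, for counts of genes, stayed within 1.5 times the reported count, and the median dispersion moved by less than its spread over the members. Detected members numbered 66 at 0.1 TPM, 41 at 5 TPM, 52 in the second quantification and 64 with TPM rescaled to nuclear protein-coding genes. The shares of all protein-coding genes under these settings were not computed, so the counts show only how the number of members depends on the setting. Hspb6 and Hspa1l were among those gained by the rescaling. The exceptions were these. In the second quantification the log2 difference of Cct2 over Tcp1 turned to -0.13. List means turned the ER minus mitochondrial difference to 0.10, and detected genes alone took it to -0.80, which exceeded 3 SD. Detected genes alone turned the members minus protein-coding difference to 0.30. Leaving out each library in turn gave -0.32 to -0.25 for Hspa1b over Hspa1a, 0.15 to 0.20 for Cct2 over Tcp1, -0.51 to -0.31 for the ER minus mitochondrial difference, which exceeded 3 SD without replicate 2, and 33 to 42 members varying beyond counting noise, with fewer samples in the test. The cause of the other changes was not tested. The leave-one-out values of the dispersion, between 0.116 and 0.132, and of the second quantification, 0 members in each case, were added after the data had been seen. No paired analysis was possible because the study has 1 group. With 3 libraries the exact two-sided sign-flip test cannot go below p = 0.25, and replicate 1, the shallowest library, sets the limit for low genes.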
